A study of Mus musculus with 278 samples.

Results

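The subject is a set of 10 genes that mammary alveolar cells are known to express, namely Trf, Spp1, Clu and Cel for secreted proteins, Muc1, Muc4 and Muc15 for mucins, and Folr1, Ceacam1 and Plet1 for other surface proteins. They were followed by name among the 27179 genes of the per-cell counts, in every cell with 50000 or more reads assigned to kept genes. The 10 genes were chosen by detection, CPM (read counts scaled to 1 common total per cell or group) and relation to casein reads in earlier results of these same cells, so these measures are given as a description. All but Plet1 also belong to the list of luminal genes that the study drew from separate bulk RNA-seq.

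The study profiled single epithelial cells of FVB/NJ mouse mammary glands with the Fluidigm C1, a microfluidic chip that isolates each cell in a chamber of its own for RNA-seq. The 278 cells comprised 112 adult basal and 43 adult luminal cells, sorted by CD24 and CD29 after removal of blood and endothelial cells, and 123 cells of the total epithelium at mid-pregnancy. Retained were 85 adult basal cells (75.9%, exact 95% interval 66.9 to 83.5), 41 adult luminal cells (95.3%, 84.2 to 99.4) and 96 pregnancy cells (78.0%, 69.7 to 85.0). Each library is 1 cell and the labels name no animal, so each group counts as 1 sample, nothing was tested and differences are without replication. Intervals are exact (Clopper-Pearson for shares, Poisson for summed reads, conditional for ratios) and reflect counting error alone, because PCR copies cannot be told from separate molecules in these reads. Adult cells were sorted by lineage and pregnancy cells were not, so stage and sort cannot be told apart.

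Alveolar cells are the luminal cells that bud from the ducts in pregnancy and make milk. Prolactin acts on them through the transcription factor STAT5, which switches on the caseins and other milk genes, while the basal layer around them contracts to expel the milk. Their apical face carries mucins, large glycosylated proteins that line the lumen, and proteins of that face also reach milk on the membrane that wraps each fat droplet. Transferrin (Trf) carries iron, osteopontin (Spp1) is a phosphorylated matrix and milk protein that binds integrins and CD44, clusterin (Clu) is a secreted chaperone, and Cel is the bile salt-stimulated lipase that digests milk fat. Folr1 is a folate receptor, Ceacam1 a cell adhesion molecule of epithelia, and Plet1 a surface protein of epithelial progenitors.

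The windows of 250 bases before a gene's start are shown for a casein and for a secreted and a mucin member, because the results compare the members with the caseins. Sequences were taken from RefSeq promoters on build GRCm38.p6, the build to which the reads had been mapped, and are written 5′ to 3′ on the strand of the gene. Capitals mark the motif TTCNNNGAA, a palindrome that reads alike on both strands and has the form bound by STAT5.
Csn2 (chr5:87699426-87699675, minus strand): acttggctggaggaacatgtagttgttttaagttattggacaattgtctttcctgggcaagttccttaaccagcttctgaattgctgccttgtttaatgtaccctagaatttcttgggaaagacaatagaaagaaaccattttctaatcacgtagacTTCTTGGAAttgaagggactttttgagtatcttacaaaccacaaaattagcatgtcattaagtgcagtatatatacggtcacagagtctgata
Spp1 (chr5:104434861-104435110, plus strand): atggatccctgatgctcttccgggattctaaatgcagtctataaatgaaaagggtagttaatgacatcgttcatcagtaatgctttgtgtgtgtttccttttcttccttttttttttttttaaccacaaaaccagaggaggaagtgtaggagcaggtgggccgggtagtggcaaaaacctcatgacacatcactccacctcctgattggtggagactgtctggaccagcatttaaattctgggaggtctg
Muc1 (chr3:89228806-89229055, plus strand): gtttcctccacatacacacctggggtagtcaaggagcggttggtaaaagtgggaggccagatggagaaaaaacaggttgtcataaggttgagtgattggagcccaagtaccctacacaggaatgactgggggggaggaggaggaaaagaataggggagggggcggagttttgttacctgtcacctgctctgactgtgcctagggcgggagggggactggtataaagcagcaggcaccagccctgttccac
The table held 7 windows for 6 of the members (Spp1 with 2, Cel, Muc1, Muc4, Ceacam1 and Plet1), and 0 of the 7 had the motif. Of the 3 casein windows, those of Csn1s1 and Csn2 had it, starting 100 and 93 bases before the gene. Among all 32851 windows 7.02% held it. A match is a run of letters and no match says only that these letters are not in the window. Trf, Clu, Muc15 and Folr1 had no entry.

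Sorted adult cells were checked against markers before the genes were read. A cell was counted as carrying basal or luminal markers when 4 or more of 8 genes had a read after thinning to 50000 reads (basal keratins, smooth muscle genes and Trp63 on 1 side, luminal keratins, claudins, Ehf and Elf5 on the other). Of the adult basal cells 84 of 85 carried basal markers, and of the adult luminal cells 40 of 41 carried luminal markers. Adult luminal cell 35 and adult basal cell 60 carried both sets, and adult basal cell 19 carried all 8 immune markers tried, so each went against its label or stood apart. None of these 3 cells was removed from the values below, and the count of members 4-fold higher in adult luminal cells was 10 both with and without the 2 cells that carried both sets, and without the cells with markers from outside the epithelium. Markers of a cell type outside the epithelium (3 or more) were found in 1 adult basal, 6 adult luminal and 23 pregnancy cells. Detection is given after thinning because depth differed between groups (median of 379075, 638595 and 215398 reads per retained cell for adult basal, adult luminal and pregnancy). The deepest cell left out had 49577 reads and the shallowest retained had 54010, both of them pregnancy cells.

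In adult glands the 10 genes were found in the luminal sort and were scarce in the basal sort. At equal depth the median adult luminal cell had reads in 5 of the 10 genes (range 1 to 9) and the median adult basal cell in 1 (range 0 to 2), with 41 basal cells showing none. The genes took 0.916% of all adult luminal reads and 0.0288% of adult basal reads. All 10 were 4-fold or more higher in adult luminal cells, against 22.8% of the 14358 genes compared. Their median log2 ratio of summed reads scaled to CPM was 7.36, beside 0.32 over all genes.

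Among the secreted proteins, Trf (Entrez gene 22041, GRCm38.p6 chromosome 9, 103208876 to 103230286) was the member that adult basal cells also held. Its CPM per cell ran from 0 through a median of 1512 to 17568 in adult luminal cells and from 0 through 1.45 to 3148 in adult basal cells, so the groups overlapped. It was detected in 28 of 41 luminal cells (68.3%, 51.9 to 81.9) and in 29 of 85 basal cells (34.1%, 24.2 to 45.2), with unthinned counts of 34 and 43. The log2 ratio of summed reads, luminal over basal, was 3.65 (3.61 to 3.68).

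Spp1 (Entrez gene 20750, chromosome 5, 104435111 to 104441053) was found in fewer luminal cells. Its reads reached a highest value of 34222 CPM in adult luminal cells around a median of 0, and at most 17.6 CPM in basal cells. It was detected in 13 luminal cells (31.7%, 18.1 to 48.1) and 2 basal cells (2.35%, 0.286 to 8.24), and the log2 ratio was 12.86 (12.05 to 13.81). Adult luminal cell 10 alone held 35.3% of the luminal reads, without which the pooled level was 1655 instead of 2491 CPM.

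Clu (Entrez gene 12759, chromosome 14, 65968483 to 65981548) was the only member read in every adult luminal cell, 41 of 41 (interval 91.4 to 100). Its level there had a median of 1584 CPM and a range of 1.39 to 12598, the lowest being adult luminal cell 35, which also carried basal markers, and the next lowest 219.5. In adult basal cells it had a median of 0 and a highest value of 891. The basal share was 13 of 85 (15.3%, 8.40 to 24.7), and the log2 ratio was 5.99 (5.91 to 6.08). Adult basal cell 79 held 42.9% of the basal reads, and the log2 ratio was 6.72 without the highest cell of each sort. The lipase gene Cel (Entrez gene 12613, chromosome 2, 28555819 to 28563403) was rare in both sorts, in 6 luminal and 2 basal cells. Adult luminal cell 3 held 52.0% of its luminal reads, and the pooled levels were 26.2 and 2.10 CPM.

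The mucins differed in how often they were seen. Muc15 (Entrez gene 269328, chromosome 2, 110721494 to 110739537), a small membrane mucin, was in 18 of 41 adult luminal cells (43.9%, 28.5 to 60.3), up to 3931 CPM. In basal cells it was in 2 of 85, and adult basal cell 17 held 89.6% of those reads, so that the log2 ratio was 7.26 with all cells and 10.23 without the highest cell of each sort. Muc4 (Entrez gene 140474, chromosome 16, 32735886 to 32782391), a membrane mucin that can pair with ERBB2, had reads in 8 luminal cells and no read in any basal cell. It was at least 315-fold higher in luminal cells against a floor of 3 reads over the basal group. The same floor of 3, taken as cells, is 3.53% of the 85, which is not an exact limit for 0 of 85. Muc1 (Entrez gene 17829, chromosome 3, 89229056 to 89233381), which coats the apical face of secretory epithelia, was in 6 luminal cells and 1 basal cell, adult basal cell 93, which held all 21 basal reads. Its log2 ratio was 7.46, and at least 9.34 against the floor without the highest cell of each sort. Adult luminal cell 17 reached 6385 CPM of Muc1 and held 47.9% of the luminal reads, and without it the pooled level was 54.4 instead of 103 CPM.

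Of the surface genes, Folr1 and Ceacam1 were all but unread in the basal sort. Folr1 (Entrez gene 14275, chromosome 7, 101858331 to 101870788) had reads in 13 luminal cells, up to 796 CPM, and in no basal cell, which makes it at least 972-fold higher. Ceacam1 (Entrez gene 26365, chromosome 7, 25461702 to 25477647) was in 28 of 41 luminal cells (68.3%, 51.9 to 81.9) at a median of 102 CPM, and the whole basal group held 1 read of it. That gives a log2 ratio of 12.74 with an interval of 10.26 to 18.04. Plet1 (Entrez gene 76509, chromosome 9, 50494525 to 50505639) was in 35 luminal cells (85.4%, 70.8 to 94.4) at a median of 469 CPM, and in 6 basal cells. Adult luminal and adult basal cells overlapped at 0 for every member but Clu, for which adult luminal cell 35 at 1.39 CPM, and without it the next lowest at 219.5 CPM, lay within the range of the basal cells.

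Adult luminal cells were then divided by progenitor markers (Kit, Elf5, Aldh1a3, Ehf, Btn1a1, Lalba, Aldoc and Kcnn4) and mature hormone-sensing markers (Prlr, Esr1, Pgr, Areg, Cited1, Foxa1, Stc2 and Tph1). The 5 cells with progenitor markers alone had a median of 8 members, the 12 with both sets 7, the 19 with mature markers alone 3, and the 5 with neither 5. Trf was at 6814 CPM pooled over the progenitor-marked cells and at 1032 CPM over the mature-marked cells, where 7 of 19 had a read. Clu was at 1893 and 1578 CPM and was found in every cell of both. Cel had no read in the 19 mature-marked cells and Muc1 had 4, which is 0.31 CPM. These sets were cut from a marker count, each is small, and Btn1a1 and Lalba among the progenitor markers are milk genes themselves.

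**Figure D1:**
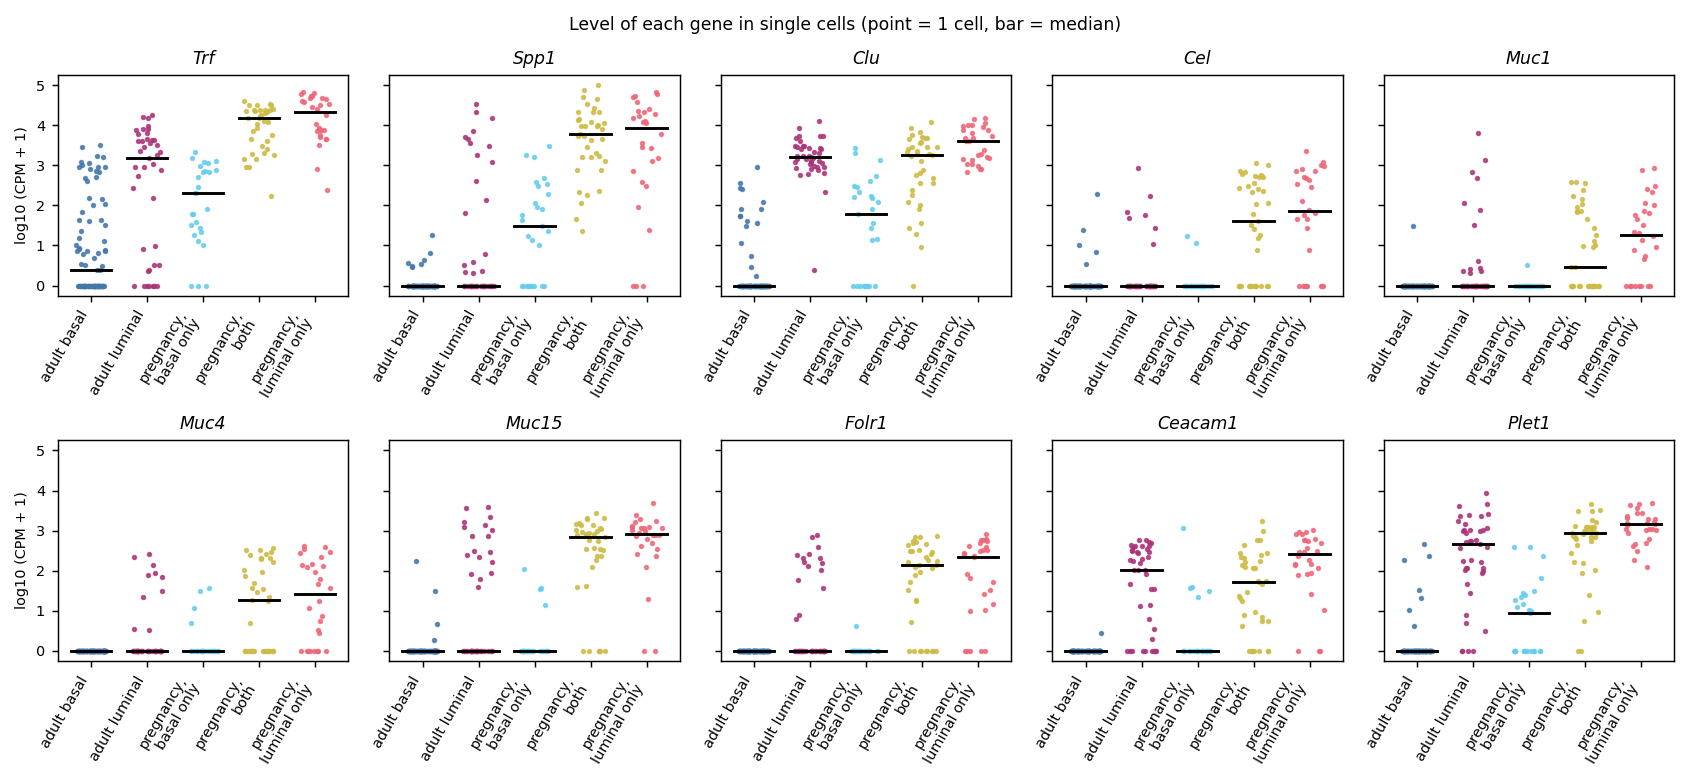
Level of each gene per cell, as log10 of CPM plus 1, in adult basal, adult luminal and the 3 marker classes of pregnancy cells, where each point is 1 cell and each bar the median. Most members lie at 0 in adult basal cells, Clu is above 0 in all 41 adult luminal cells, and pregnancy cells with basal markers only lie below those with both sets or with luminal markers only.

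Pooled over all pregnancy cells, Trf, Spp1 and Cel stood well above the adult luminal level, and the other members lay closer to it. Compared with adult luminal cells, 3 of the 10 members were 4-fold or more higher (Trf, Spp1 and Cel), against 15.8% of 14867 genes. The members' median log2 ratio was 1.37, beside -0.40 over all genes. Scaling by TMM factors, a normalization that sets aside the genes with the most extreme ratios, raised every log2 ratio of this comparison by 0.49, and gave 4 members past the limit. With every cell given the same weight 2 passed it, Spp1 and Cel, and Trf stood just short at 1.99. Pooled over 96 pregnancy cells the 10 genes took 4.24% of the reads, the 5 caseins 21.1%.

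Trf was at 18363 CPM in pooled pregnancy cells and 3028 in adult luminal cells, a log2 ratio of 2.60 (2.59 to 2.61). Single pregnancy cells ran from 0 through 4916 to 67777 CPM, and 89 of 96 had a read (92.7%, 85.6 to 97.0). Spp1 ran from 0 through 1579 to 103434 CPM and was in 80 cells (83.3%, 74.4 to 90.2), with a log2 ratio of 2.87 (2.86 to 2.88). Both genes thus spanned the full range of the adult luminal cells, with the highest cells above it. Cel had a median of 0 and a highest cell of 2246 CPM, was in 43 cells (44.8%, 34.6 to 55.3), and had the largest log2 ratio of the members, 3.60 (3.48 to 3.71). Clu was in 85 cells at a median of 1008 CPM and a log2 ratio of 0.61 (0.59 to 0.62), and its ratio was 0.06 when every cell had the same weight.

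The mucins and surface genes, pooled over all pregnancy cells, lay closer to the adult luminal level. Muc4 was in 36 pregnancy cells with a highest value of 404 CPM and a log2 ratio of 1.71 (1.58 to 1.83). Muc15 was in 62 cells (64.6%, 54.2 to 74.1) with a median of 252 CPM, a highest cell of 4798 and a log2 ratio of 1.23 (1.19 to 1.27). Folr1 was in 46 cells (47.9%, 37.6 to 58.4) with a log2 ratio of 1.51 (1.43 to 1.58). For these 3 genes the adult luminal cells and the pregnancy cells covered much the same range, from 0 upwards.

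Plet1 and Ceacam1 hardly differed in level when all pregnancy cells were pooled. Plet1 stood at 1029 CPM in pregnancy and 834 in adult luminal cells (log2 0.30, 0.28 to 0.33), a difference that turned to -0.17 when every cell had the same weight. Ceacam1 stood at 191 CPM in both (log2 0.01, -0.05 to 0.07), in 53 pregnancy cells and 28 of the fewer adult luminal cells. Muc1 was in 31 pregnancy cells (32.3%, 23.1 to 42.6) and yet lower in pooled level, 78.4 against 103 CPM (log2 -0.40). In summed reads that direction was not stable: without the highest cell of each group, adult luminal cell 17 among them, the log2 ratio was 0.28. With TMM scaling it was 0.09. When every cell had the same weight the ratio was -2.05, with adult luminal cell 17 included. These pooled pregnancy levels include cells with basal markers only. In pregnancy cells with luminal markers only, levels were 1593 CPM for Plet1, 300 for Ceacam1, 121 for Muc1 and 5279 for Clu. They were 131 for Muc4, 1039 for Muc15 and 283 for Folr1. Each was above its adult luminal level, 834, 191, 103, 2047, 26.4, 330 and 81.5 CPM in the same order. That holds with cells of all title numbers pooled. In the 11 such cells with title numbers up to 55, Muc1 (190 reads) and Folr1 (186 reads) lay below their adult luminal level, and the others stayed above theirs.

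Read per kilobase of exon, Spp1 (11002), Trf (7874) and Clu (1722 CPM per kilobase) led in pregnancy, then Plet1 (557), Muc15 (487), Folr1 (165), Cel (155), Ceacam1 (51.2), Muc1 (35.1) and Muc4 (7.64). In the pregnancy cells with title numbers up to 55 alone, Trf (4044) stood above Spp1 (2853), as it did by the median cell of all 96 (2108 and 952 CPM per kilobase). Spp1 stood above Trf by the mean of all 96 cells (6231 and 5738) and in the pooled cells above 55 (16014 and 10230). The order of these 2 thus differed by block and between mean and median. In adult luminal cells Spp1 (1503), Trf (1298) and Clu (1132) led again and Cel was ninth at 12.9 CPM per kilobase. Without the highest cell of each gene, which is adult luminal cell 10 for both Spp1 and Trf, Trf (1134) and Clu (1087) stood above Spp1 (998). In adult basal cells Trf was first with 104 CPM per kilobase. Every gene but Clu in adult luminal cells had cells at 0 in each group, so the cells of any neighbours in these orders overlapped.

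Pregnancy cells fell into 2 blocks by the number in their titles, up to 55 (45 cells) and above 55 (51 cells), a division found in earlier work on these data and not explained by any label. Caseins took 8.24% of the reads in the first block and 29.0% in the second. With the first block alone 0 members were 4-fold above adult luminal cells, where Trf was at a log2 ratio of 1.64, Spp1 at 0.92 and Cel at 1.43, and with the second alone 4 were, with Trf at 2.98, Spp1 at 3.41 and Cel at 4.16. Ceacam1 went the other way, 258 CPM in the first block and 150 in the second. Title numbers start anew in each group, so those of the adult luminal cells do not place them in either block. Whether the blocks are animals, chips or runs was not tested.

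The relation of each gene to the casein reads of the same cell was read in pregnancy cells as Spearman's rho between the casein share and the gene's CPM with casein reads left out of the total. All 10 members reached 0.3 or more, as did 9.16% of 5838 genes found in 20% or more of these cells, whose median rho was 0.05. Trf had the highest rho of all these genes (0.92), and Spp1 (0.90), Folr1 (0.89) and Muc15 (0.88) ranked 4, 7 and 9. Cel (0.81), Plet1 (0.80) and Clu (0.79) stood among the first 19, and Muc1 (0.62), Muc4 (0.61) and Ceacam1 (0.55) between ranks 66 and 109. For comparison, the milk genes Glycam1, Wap and Lalba had 0.92, 0.89 and 0.86. The labels do not name the library batch of the 96 cells. Their casein share went with depth (rho 0.64 with kept reads), with the number of luminal markers (0.69) and, downwards, with that of basal markers (-0.39). At an equal depth of 50000 reads rho was 0.92 for Trf and lay between 0.52 (Ceacam1) and 0.90 for the others. Within the block up to 55 and the block above 55 all 10 members had a rho of 0.52 or more.

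**Figure D2:**
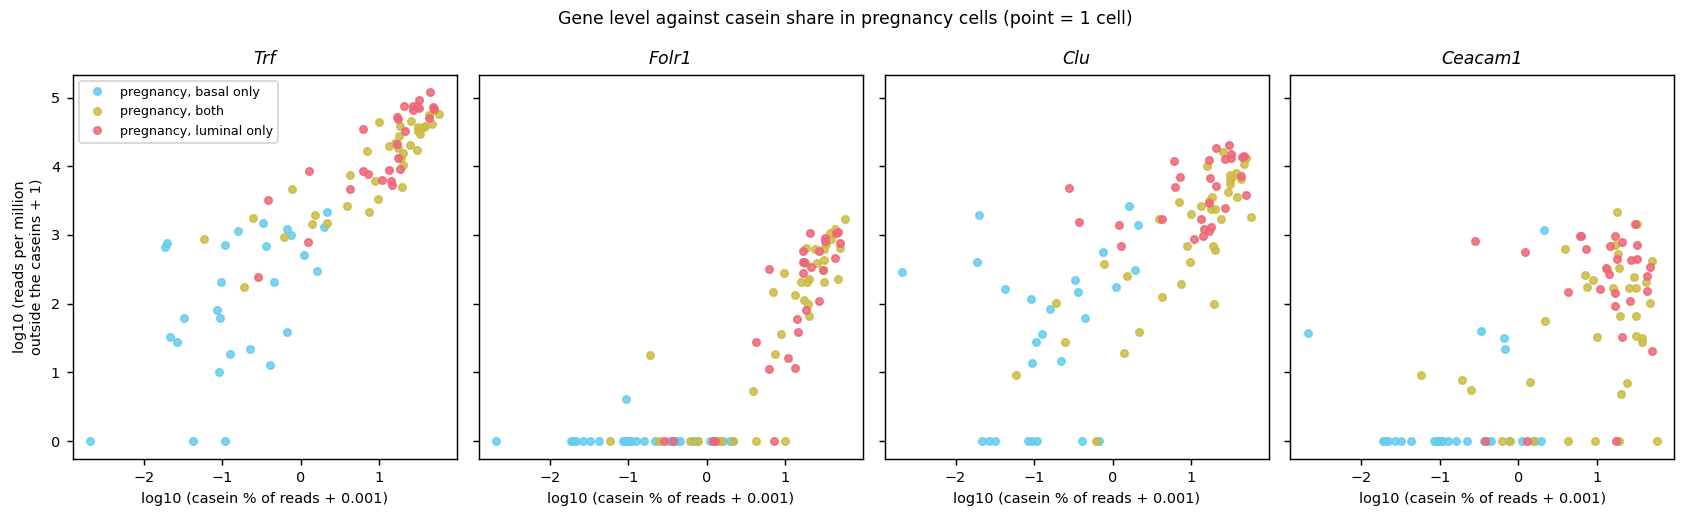
CPM with casein reads left out of the total (log10, plus 1) against the casein percent of each cell (log10, plus 0.001) for Trf, Folr1, Clu and Ceacam1 in pregnancy cells, coloured by marker class, 1 point a cell. Trf rises with casein over all cells (rho 0.92), less closely in cells with basal markers only (0.48). Folr1 appears mostly in cells with several percent of casein or more, and Ceacam1 varies among high-casein cells with little order (rho 0.55 over all).

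Detection at 50000 reads per cell was then read by casein share, and depends on how abundant each gene is. Pregnancy cells were set in 4 bins, under 0.1% casein (14 cells), 0.1 to 1% (19 cells), 1 to 10% (21 cells) and 10% or more (42 cells), of which the first and second are thin. Trf was already in 10 of 14 cells of the lowest bin and in 16, 21 and 42 of the next, so that every cell with 1% casein or more had it. Clu was in 8, 14, 21 and 42 cells, and Spp1 in 4, 15, 19 and 42. Plet1 was in 5, 8, 15 and 42, and Ceacam1 in 2, 4, 12 and 35. Muc15 was missing from the lowest bin and in 2 of 19, 18 of 21 and 42 of 42 cells of the rest. Folr1 had no cell in either bin under 1% after thinning, then 8 of 21 and 38 of 42. Before thinning it had 1 read in pregnancy cell 86 and 5 in cell 7, 1 cell of each low bin. The 0 of 14 and 0 of 19 leave room for shares up to the upper limits of 23.2% and 17.6% of their exact intervals. Cel was in 2, 0, 5 and 36 cells, Muc1 in 0, 1, 5 and 25, and Muc4 in 0, 3, 6 and 27. In the highest bin Trf, Spp1, Clu, Muc15 and Plet1 were therefore in all 42 cells, Muc4 in 64.3% and Muc1 in 59.5%. At the reads per casein read of the highest bin, expected reads in the 19 thinned cells with 0.1 to 1% casein were few. They were 1.20 for Muc1, 1.36 for Muc4, 3.83 for Folr1 and 5.34 for Cel. A scarcity of Muc1, Muc4 and Folr1 in the low bins thus says little about order. Before thinning the 19 cells held 0 Cel reads, where the ratio would give 15.7, and 5 Folr1 reads, where it would give 11.2. Under 0.1% casein Cel had 6 reads where the ratio would give 1.53, so its low bins went opposite ways. For abundant genes the same ratio would give 296 Trf and 47.6 Clu reads in the 19 thinned cells, where 897 and 423 were found. It would give 307 Spp1 reads, where 230 were found, and 12.4 Muc15 reads, where 2 were found.

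In adult luminal cells every member went less closely with casein than in pregnancy cells, and Ceacam1 least of all. In the 17 adult luminal cells with under 0.1% casein Clu was in 17 at 1740 CPM pooled, beside 2396 CPM in the 13 cells with 1 to 10%. Ceacam1 stood at 166 and 233 CPM in the same bins, in 10 of 17 and 10 of 13 cells. Plet1 was in 11 of the 17 at 116 CPM and in all 13 at 1477 CPM. Trf stood at 259 CPM under 0.1% and at 6440 CPM at 1 to 10%, and Folr1 at 2.90 and 186 CPM. Over the 41 adult luminal cells rho with the casein share was 0.81 for Trf, 0.67 for Plet1, 0.64 for Muc15, 0.61 for Folr1, 0.48 for Muc4, 0.36 for Spp1, 0.33 for Clu, 0.32 for Cel, 0.31 for Muc1 and 0.17 for Ceacam1. Plet1 was thus among the members that followed casein most closely there.

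**Figure D3:**
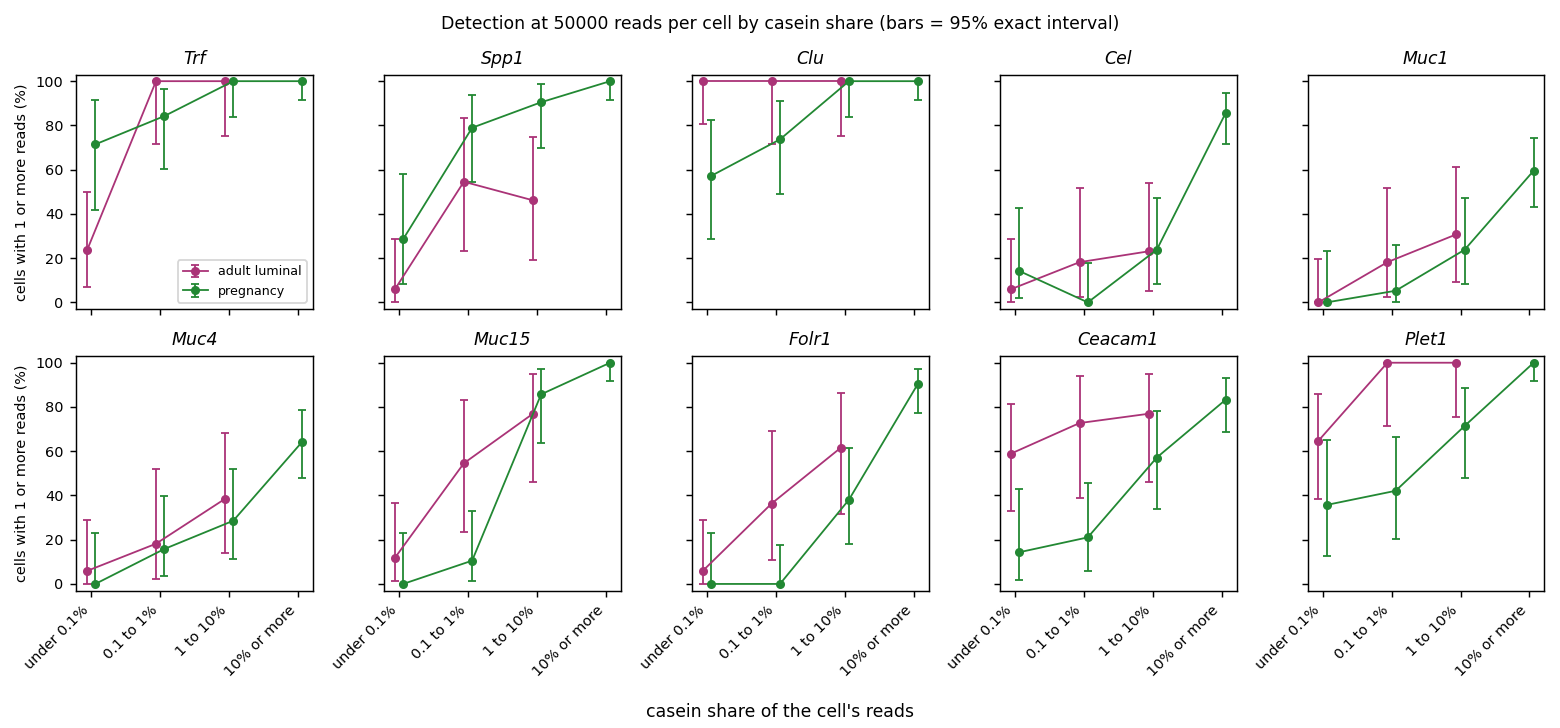
Percent of cells with 1 or more reads of each gene at 50000 reads per cell, by the casein share of the cell's reads, in pregnancy cells (green) and adult luminal cells (purple, none of which had 10% or more), with exact 95% intervals. Folr1 is at 0 in pregnancy cells under 1% casein at this depth and at 90.5% in those with 10% or more, while Clu is at 100% in adult luminal cells of every bin.

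Among pregnancy cells 64 of 96 carried basal markers (66.7%, 56.3 to 76.0). Of these, 27 carried basal markers only and 37 both sets, beside 28 cells with luminal markers only and 4 with neither. The classes are ranges on a marker count and not cell types: 3 cells had 3 and 1 cell had 4 basal markers, and 11 and 5 cells had 3 and 4 luminal markers. The cells with both sets had a median of 249422 reads and 3578 genes at equal depth, those with luminal markers only 241134 reads and 3080 genes, and those with basal markers only 132118 reads and 3028 genes. Capture sites had been inspected by eye before sequencing, no doublet caller was run, and the part of chambers with more than 1 cell in the class with both sets was not tested.

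Cells with both marker sets carried the members nearly as fully as cells with luminal markers only. The median was 8 members in cells with both sets (range 3 to 10), 9 in cells with luminal markers only (4 to 10) and 3 in cells with basal markers only (1 to 6). All 10 members were found together in 13 pregnancy cells, 7 of them with both sets and 6 with luminal markers only. Pooled over all 64 cells with basal markers, all 10 members were 4-fold or more above adult basal cells, against 18.9% of 14508 genes, with a median log2 ratio of 7.66 beside -0.18 over all genes. That count was 4 with the 27 cells that carried basal markers only (17.5% of 13701 genes), and the 4 were Spp1, Clu, Muc4 and Ceacam1. Without the highest cell of each gene in both groups it was 6, with Muc15 and Plet1 added.

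In those 27 cells Trf, Clu and Spp1 were the genes most often seen. Trf was in 22 of them, with cells from 0 through a median of 204 to 2124 CPM, so that its pooled 413 CPM was close to the 242 of adult basal cells (log2 0.77). Spp1 was in 16, from 0 through 29.7 to 2998 CPM, where only 2 of 85 adult basal cells had a read (pooled log2 ratio 9.29). Clu was in 18 with a pooled log2 ratio of 2.85, and Plet1 in 10 with 1.83, or 2.14 without the highest cell of each group. Cel (2 cells, 6 reads) and Muc1 (1 read) were below adult basal cells, at log2 ratios of -0.49 and -1.24. Adult basal cell 68 held 45 of the 75 adult basal Cel reads, without which the ratio was 0.82, and -1.64 when the highest pregnancy cell was also left out. Adult basal cell 93 held all 21 Muc1 reads, and no ratio can be given without it. The direction of either gene thus rests on single cells. Folr1 had 1 read in the 27 cells and none in adult basal cells, so no ratio is given. Muc15 had 13 reads in 4 cells (log2 0.59), but 69 of the 77 adult basal reads were in adult basal cell 17, and the log2 ratio was 3.84 without that cell and 2.96 without the highest cell of both groups. Muc4 had 6 reads, at least 4.15 on the log2 scale above the floor of the adult basal group. Ceacam1 had 86 reads, 76.7% of them in pregnancy cell 80, and its log2 ratio of 9.58 is set against 1 adult basal read.

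Immune markers were summed beside these values because osteopontin is also a macrophage product. Their 8 genes came to 983 CPM pooled in cells with basal markers only (0 to 13577 per cell), 7.00 CPM in cells with both sets and 4.31 CPM in cells with luminal markers only, where Ptprc, Lyz2, Adgre1 and Tyrobp were at 0. The 983 CPM came with 3 cells that had 3 or more immune markers, and of these pregnancy cells 32 and 41 had no Spp1 read and cell 13 had 80.9 CPM. Without the 3 cells Spp1 was in 15 of 24 cells at 232 CPM, Trf in 19 at 383 CPM and Clu in 16 at 244 CPM. Adult basal cell 19, with all 8 immune markers, had no read of Spp1, Trf or Clu. Fibroblast markers, for their part, came to 3222 CPM in cells with basal markers only, 748 in those with both sets and 1719 in those with luminal markers only, and their part in the members' levels was not tested.

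All 10 members were 4-fold or more higher in pregnancy cells with luminal markers only than in those with basal markers only, against 13.3% of 13357 genes, with a median log2 ratio of 6.56 beside -0.39 over all genes. Ratios ran from 3.81 (3.50 to 4.14) for Ceacam1 and 4.51 (4.41 to 4.60) for Clu, through 6.21 (6.14 to 6.28) for Trf and 6.68 (6.58 to 6.78) for Spp1, to 8.33 (7.55 to 9.24) for Muc15 and 10.15 (7.67 to 15.46) for Folr1. The 5 caseins lay between 5.88 and 6.47. The ratios of Trf and Spp1 were thus near those of the caseins and that of Clu lower. The value for Ceacam1 rested on pregnancy cell 80, and was 5.73 without the highest cell of each class. Without those cells Muc15 was at 9.03 and Cel at 10.44, and the caseins lay between 6.17 and 8.64, the highest being Csn1s2b. Folr1 then had no read left in the cells with basal markers only, and was at least 8.46 against the floor of 3 reads.

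The same comparison was made per casein read, to see whether the members kept the ratio to casein that they had in cells with luminal markers only. In cells with luminal markers only there were 120 Trf, 84.7 Spp1, 20.8 Clu, 6.27 Plet1, 4.09 Muc15, 1.78 Cel, 1.18 Ceacam1 and 1.11 Folr1 reads per 1000 casein reads. Relative to that, the cells with basal markers only had 0.94 times as many Trf reads (0.90 to 0.99) and 0.68 times as many Spp1 reads (0.64 to 0.73), while single caseins ranged from 0.79 (Csn2) to 1.18 (Csn1s2a). That range holds for the pooled reads only: Csn1s2b, at 1.02 on 17 reads, was at 0.13 without pregnancy cell 102, and Csn3 was at 2.03 in the block of title numbers up to 55. Without their highest cell the other 4 caseins lay between 0.77 and 1.05. Muc15 was at 0.22 times (0.12 to 0.37), with 13 reads where the luminal ratio would give 59.9, Cel at 0.23 (0.084 to 0.50), Muc1 at 0.14 (0.0036 to 0.80) and Folr1 at 0.061 (0.0016 to 0.34), with 1 read in place of 16.3. Clu was at 3.07 times (2.87 to 3.27), still 2.07 without its highest cell, whereas Ceacam1 at 4.96 was at 1.26 and Plet1 at 1.39 was at 0.75 without theirs. In cells with both sets the 10 ratios lay between 0.53 (Clu) and 1.04 (Spp1), with Folr1 at 0.97. These also hold for pooled reads only. Within the blocks up to 55 and above 55, Folr1 was at 2.16 and 0.86, Muc1 at 1.24 and 0.56, and Ceacam1 at 1.02 and 0.46. Clu was at 0.55 and 0.53. In cells with basal markers only, Spp1 was at 0.35 and 0.77. Each block was set against its own cells with luminal markers only.

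These ratios also move with the casein level itself, since Folr1 and Cel were rare in any pregnancy cell under 1% casein and the cells with basal markers only reached at most 2.13%. In the bin of 1 to 10%, Muc15 was in 3 of 4 cells with basal markers only at 28.9 CPM, in 9 of 10 with both sets at 379 CPM and in 5 of 6 with luminal markers only at 375 CPM. Csn2 was also lower in the first of these, at 3503 CPM beside 18672 and 18398, so the bin does not match their casein. Folr1 was in 0 of 4, 4 of 10 and 3 of 6 of these cells.

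**Figure D4:**
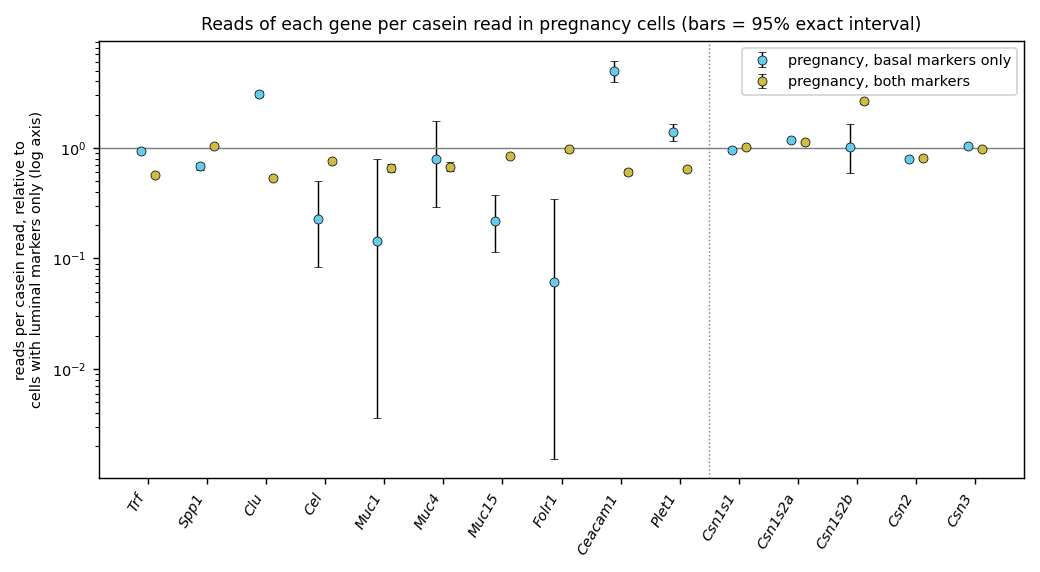
Reads of each member and casein per casein read, relative to pregnancy cells with luminal markers only (log axis, 1 marks equality), in cells with basal markers only (blue) and both sets (yellow), with exact 95% intervals. The caseins of the blue class lie between 0.79 and 1.18, Muc15, Cel, Muc1 and Folr1 below 1, and Clu and Ceacam1 above it, though without 1 cell each Csn1s2b is at 0.13 and Ceacam1 at 1.26.

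Within single classes the relation to casein was uneven. In the 28 cells with luminal markers only rho was 0.87 for Folr1, 0.86 for Trf and Spp1, 0.79 for Cel, 0.70 for Muc15, 0.58 for Clu, 0.57 for Plet1, 0.49 for Muc1, 0.42 for Muc4 and -0.065 for Ceacam1. In the 27 cells with basal markers only, 3 members reached 0.3 (Spp1 at 0.73, Muc15 at 0.50 and Trf at 0.48), and Plet1 was at 0.02, Folr1 at -0.10 and Cel at -0.25, the last 2 on 1 and 2 cells with reads. Over all 96 pregnancy cells Ceacam1 had the lowest rho with casein of the members. With the number of luminal markers per cell its rho was 0.65, and Plet1 (0.77), Muc15 (0.72) and Trf (0.71) had higher ones.

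The genes most like each member across the 96 pregnancy cells were mostly milk genes. By Spearman's rho of the same casein-free CPM over 5842 genes, Csn2 was nearest to Trf (0.93), Folr1 (0.89), Muc15 (0.88) and Plet1 (0.83). Glycam1, the gene of a mucin-like milk glycoprotein, was nearest to Spp1 (0.92), and Trf was nearest to Clu (0.86), Cel (0.84) and Muc1 (0.66). Muc4 was most like Btn1a1, which codes for butyrophilin of the milk fat membrane (0.63). For Ceacam1 the nearest was Ceacam2 (0.81), a close paralog with which it can share reads, so that value is uncertain, and then Krt19 (0.70), a luminal keratin, and Spint1 (0.67).

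Other genes of the same kinds were read from lists. Shares over all genes were computed only for genes 4-fold higher, so counts of lower genes stand without one. Of 15 other alveolar secretory genes compared between adult sorts, 10 were 4-fold or more higher in luminal cells and 2 lower (22.8% of all genes higher). In pregnancy 10 of 16 were 4-fold above adult luminal cells (15.8% of all genes). Glycam1 stood at 12244 CPM in pregnancy and 0.040 in adult luminal cells, where 1 read was found, Wap, the whey acidic protein, at 4179 and 9.73, and Wfdc18 at 12011 and 3089. The adult luminal sort thus held Trf, Spp1, Clu and Wfdc18 at 2047 CPM or more while Wap and Glycam1 were nearly unread.

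Relatives of the members went separate ways. Of 6 measured, 4 were 4-fold higher in adult luminal than basal cells (22.8% of all genes) and 3 were 4-fold higher in pregnancy than in adult luminal cells (15.8%). The lactoferrin gene Ltf, a relative of Trf, was at 13.4 CPM in adult basal, 17.2 in adult luminal and 1547 in pregnancy cells (log2 ratio 6.49), so Trf was abundant in adult luminal cells and Ltf was not. Ceacam10 stood at 0, 32.9 and 135 CPM, and the lipase gene Lpl at 14.8, 41.4 and 336. Of 7 other mucin genes compared, 2 were 4-fold higher and 2 lower in pregnancy than in adult luminal cells (15.8% of all genes higher). Their median log2 ratio was 1.48, beside -0.40 over all genes. Muc13 was at 52.3 CPM in adult luminal and 3.62 in pregnancy cells, and the sialomucins Podxl (86.3 and 19.9) and Cd164 (2135 and 535 CPM) were lower in pregnancy too. The rest of those compared were higher in pregnancy, as Muc4 and Muc15 were. These were Muc20 (5.51 and 25.8 CPM), Emcn (13.4 and 37.4 CPM) and the scarce Muc5b and Muc6.

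Receptors and partners of the member proteins were compared between the same classes. Of 14, 2 were 4-fold higher and 4 lower in pregnancy cells with luminal markers only than in those with basal markers only (13.3% of all genes higher, near the share of the list), with a median log2 ratio of -1.54 beside -0.39 over all genes. The osteopontin receptors Cd44 (867 CPM in basal only, 109 in luminal only), Itgb1 (939 and 266) and Itgav (371 and 144) stood higher in the cells with basal markers only, where Spp1 was low. Of 10 luminal and alveolar regulators, 0 were 4-fold higher and 3 lower in pregnancy than in adult luminal cells (15.8% of all genes higher, share lower not computed). Their median log2 ratio was -0.52, beside -0.40 over all genes. The prolactin receptor gene Prlr was at 5723 CPM in adult luminal and 298 in pregnancy cells, and Gata3 at 669 and 237. Ehf, a luminal ETS factor, was at 343 and 231, a log2 ratio of -0.57 that lay near the median of all genes.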

How the data were processed

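Libraries of single cells captured on the Fluidigm C1 were made with Nextera XT and read on a NextSeq. Read pairs were mapped by the authors to mm10 with Subread (1.4.6 in the submitters' processing notes) and counted per gene with featureCounts and its built-in RefSeq annotation, and the deposited files hold these raw counts per Entrez gene for each cell, with no normalization and no strand stated. A series-wide table was not used. The members, lists and tests were chosen with earlier results of these data known.

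Counts were read with Python 3.11.15 (NumPy 2.4.6, SciPy 1.17.1, pandas 2.3.3). Of 27179 IDs, 1904 without a symbol (1.20% of reads), 15 mitochondrial (9.54%) and 153 ribosomal genes (1.60%) were removed, which left 25107. Cells with 50000 or more kept reads were retained. CPM were summed reads of a group over its kept reads. For ratios genes needed 1 CPM in 3 or more cells (15315 genes), and a sum of 0 was set to a floor of 3 reads over the group. Detection, marker counts and members per cell used each cell thinned once to 50000 reads. Classes needed 4 of 8 markers. Named genes were the members, the caseins, the 3 highest of each list and the 3 genes most like each member (rho 0.4 or more). Alternatives were TMM factors (edgeR 4.0.16), milk genes out of the denominator, equal weight per cell, the study's minimums, other marker thresholds, a 2-fold limit, no low filter, leaving out cells and the blocks of title numbers. Ratios, intervals and correlations were tested on simulated Poisson counts without PCR copies, which checks the calculation only. No p-value was computed.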

Additional observations from a re-analysis of the deposited data

Results flagged for a closer look

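Reads of the 10 genes were also found in cells that had too few reads for the comparisons. The 27 pregnancy cells under 50000 kept reads held 5126 such reads, 1.27% of their 403742 kept reads, beside 8.07% from caseins. The 27 adult basal cells left out held 410 (0.120% of their reads), and the 2 adult luminal cells left out held 238 (0.557%). These counts lie above the 3 reads that a count of 0 allows, and no explanation was tested.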

How the results depend on the processing

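Of 80 alternatives to the counts and medians, 73 stayed within 1.5 times the value reported and 7 did not. Members 4-fold higher in pregnancy than in adult luminal cells were 3, 0 with title numbers up to 55 alone, and 6 at a 2-fold limit (24.2% of all genes). Members 4-fold higher in pregnancy cells with basal markers than in adult basal cells were 10, and 4 without the cells that also had luminal markers, an alternative chosen after seeing the data, in which Cel (-0.49) and Muc1 (-1.24) changed sign on the log2 scale. Also leaving out the highest cell of each gene, in adult basal cells or in both groups, gave 6 either way. Cel was then at 0.82 or -1.64, and Muc1 had no ratio. Members with rho of 0.3 or more with the casein share were 10, and 3 in cells with basal markers only, where Cel (-0.25) and Folr1 (-0.10) were negative. In cells with luminal markers only, Ceacam1 was at -0.065. The median of members per adult basal cell was 1, and 0 when 5 or more reads were asked. The causes were not tested, though each of the smaller sets holds fewer cells. Of 405 alternatives for single log2 ratios, 174 stayed within the counting interval, 228 were counted as moved and 3 that had passed 4-fold changed direction. The 228 include alternatives to lower bounds, which have no interval. Muc4, adult luminal over adult basal, was so counted at 8.32 beside 8.30, with milk genes out of the denominator. Within 4-fold, pregnancy over adult luminal, Clu (-0.51, titles up to 55), Muc1 (0.09, TMM), Plet1 (-0.17, equal weight per cell) and Ceacam1 (-0.34, titles above 55) changed sign. Of 100 alternatives for rho, 78 stayed, 19 moved and 3 reversed, and of 120 for detection, 102, 18 and 0. TMM scaling shifted the log2 ratios by 0.30 (adult luminal over basal), 0.49 (pregnancy over adult luminal), 0.23 and 0.45 (the comparisons by basal markers in pregnancy). No paired analysis was possible because the title numbers name cells and the results come from no test. The number of cells limits rare genes: 0 of 14 cells leaves room for 23.2%.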
